A study of Mus musculus with 24 samples.

Results

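The B-cell receptor signalling genes Cd79a, Lyn, Blk, Syk, Blnk, Btk, Plcg2 and Vav1 were followed in the ileum of 24 mice. They were taken by the symbol of the Ensembl identifier from the table of read counts, as 8 of its 55536 genes. All 8 were among the 14076 genes that passed the filter on low counts. Each was read in CPM (read counts scaled to the TMM-normalized library total) and relative to Ms4a1, which encodes CD20, a surface protein of mature B cells.

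The mice were C57BL/6N, an inbred laboratory strain, 4 to 5 weeks old at the start, and each of the 4 groups held 3 females (F1 to F3) and 3 males (M1 to M3). The control diet (CD) supplied 10 kcal% fat and the high-fat diet (HFD), which induces obesity and insulin resistance, supplied 60 kcal% fat. After 20 weeks on the diet, animals in the CDmetf and HFDmetf groups drank water with metformin, an antidiabetic drug, at 50 mg/kg/day for 10 more weeks on the same diet. The study asked how diet and metformin alter gene expression in the distal small intestine, and 1 library of ribosomal RNA-depleted total RNA was sequenced per animal.

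The B-cell receptor is a membrane immunoglobulin held by a pair of signalling chains, and antigen binding lets Src-family kinases phosphorylate those chains and recruit the kinase Syk. The adaptor Blnk then brings Btk and Vav1 together with the phospholipase Plcg2, whose products raise calcium and activate protein kinase C. In the ileum, B cells gather in Peyer's patches and isolated lymphoid follicles, and several of these signalling proteins also work outside B cells, Vav1 in T cells, Syk in macrophages and mast cells and Plcg2 in tuft cells. A piece of whole tissue holds all of these cells, so that fewer cells of a type and less RNA per cell cannot be told apart.

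Between 1829690 and 40606442 reads per library fell on genes, with a median of 3467310. In CD M3 the 10 most abundant genes took 85.4% of these reads, and in HFDmetf F2 36.6%, against at most 18.97% in the other 22. HFD M2 and HFD F2, named here by their labels, carried sex-linked transcripts of the other sex, and HFD M3 had 0.812 CPM of the ileal marker Fabp6, against 32.4 to 2646 CPM elsewhere. Slc10a2, the ileal bile acid transporter, ran from 4.87 CPM in HFD M3 to 1355 in CDmetf M3, and CDmetf F1 (14.3) and CD M1 (21.4) were the next lowest for it as well as for Fabp6. Vil1, Epcam and Cdh1, which mark intestinal epithelium in general and not the ileum, each reached at least 637 CPM in every library. The tissue is called ileum here after the study's methods, while the sample titles say small intestine.

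The 5 promoters printed here show what the sequences just before the start sites of these genes share and where they differ, since Cd79a, Plcg2, Syk and Vav1 hold CAGGTG, an E-box of the kind that E proteins of lymphocytes bind, and Btk holds none of the motifs searched. They come from RefSeq on GRCm38.p6, 5′ to 3′ on the strand of the gene, without bases that lie in an annotated exon, so that the last base is next to the start or to the nearest exon. The position was chr7:24897247-24897380 on the plus strand for Cd79a, chr13:52596632-52596852 on the plus strand for the second start of Syk, chrX:134583141-134583390 on the minus strand for Btk, chr8:117498025-117498274 on the plus strand for Plcg2 and chr17:57278850-57279099 on the plus strand for Vav1. The start sites are those of RefSeq. The windows of Btk and of the second start of Syk lie inside the GENCODE M21 gene models given below, downstream of the outermost start of each gene. Capitals mark CAGGTG in each of the 4 that hold it and, in Vav1, also the EBF core CCCNNGGG and the ETS motif AGGAAGT.
Cd79a: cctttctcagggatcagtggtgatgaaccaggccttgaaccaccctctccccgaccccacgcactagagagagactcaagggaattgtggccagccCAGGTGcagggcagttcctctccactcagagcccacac
Syk: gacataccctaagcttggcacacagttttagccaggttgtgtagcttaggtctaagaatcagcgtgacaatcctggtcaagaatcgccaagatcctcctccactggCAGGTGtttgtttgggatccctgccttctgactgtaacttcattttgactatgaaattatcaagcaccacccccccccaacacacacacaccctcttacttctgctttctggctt
Btk: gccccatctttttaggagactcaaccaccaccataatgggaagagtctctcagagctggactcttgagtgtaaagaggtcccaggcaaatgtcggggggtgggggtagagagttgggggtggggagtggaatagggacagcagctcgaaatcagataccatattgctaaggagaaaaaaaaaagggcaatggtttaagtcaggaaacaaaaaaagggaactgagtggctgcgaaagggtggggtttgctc
Plcg2: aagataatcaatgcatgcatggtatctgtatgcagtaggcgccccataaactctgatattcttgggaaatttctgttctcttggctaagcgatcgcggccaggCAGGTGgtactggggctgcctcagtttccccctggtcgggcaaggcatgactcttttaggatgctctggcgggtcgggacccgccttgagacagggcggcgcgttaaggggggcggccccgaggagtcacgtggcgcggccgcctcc
Vav1: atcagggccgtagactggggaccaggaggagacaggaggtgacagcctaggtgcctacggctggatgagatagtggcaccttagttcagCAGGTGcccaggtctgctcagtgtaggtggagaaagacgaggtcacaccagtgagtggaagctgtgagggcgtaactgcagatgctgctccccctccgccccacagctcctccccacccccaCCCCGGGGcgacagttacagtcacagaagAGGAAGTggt

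Promoter entries were matched for 6 members, in 7 windows, and each motif was searched on both strands of the 250 bases before the start. The search took in bases counted as exonic, which were not printed above. These were all 250 for Blnk and for the first start of Syk, 116 for Cd79a and 29 for the second start of Syk. All motifs of Blnk and the ETS motif of Cd79a, 55 bases before the start, fell there. The E-box CAGGTG was found for 5 of these 6 members (Blnk, Cd79a, Plcg2, Syk and Vav1), and in 17.2% of all 32851 promoters. The ETS motif AGGAAGT was found for Blnk, Cd79a and Vav1, and in 7.69% of all promoters, and CCCNNGGG for Vav1 alone of the 6, and in 11.8%. The octamer ATGCAAAT, the letters of a motif known from immunoglobulin promoters, stood 130 bases before the start of Blnk and in no other member window, and in 1.6% of all promoters.

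Levels of different genes were compared only per length of exon, as CPM per kb, on the GENCODE M21 models of GRCm38. Lyn (chr4:3678115-3813122) had a median of 12.7 CPM per kb over the 24 libraries, Plcg2 (chr8:117498291-117635142) 8.24, Syk (chr13:52583173-52648792) 4.43, Cd79a (chr7:24897381-24902197) 3.57 and Blnk (chr19:40928927-40994535) 3.44. Vav1 (chr17:57279100-57328031) followed with 2.95, Btk (chrX:134542336-134583570) with 0.900 and, nearly level with each other, Ms4a1 (chr19:11249675-11266241) with 0.263 and Blk (chr14:63372836-63417037) with 0.260. All neighbours in this order had ranges that overlapped. Cd79a covered the widest range of the members without a library at 0, from 1.16 to 38.03 CPM per kb. Lyn shares 248 exonic bases, 6.09% of its exonic length, with Gm26857 on the opposite strand, so that those reads are uncertain, and no other member shares exonic bases with another gene.

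Cd79a encodes Ig-alpha, a chain that carries the signal of the receptor. In CD it ran from 1.88 to 10.1 CPM with a median of 3.88, in CDmetf from 2.09 to 55.4 with a median of 11.0, in HFD from 2.58 to 39.98 with a median of 5.29 and in HFDmetf from 1.68 to 6.22 with a median of 4.78. The high ends of CDmetf and HFD were made by F2 (55.4), M1 (19.6) and F3 (15.8) in the first and by F1 (39.98) and M2 (28.1) in the second, and the groups overlapped in every contrast. The log2 fold change (logFC) was 1.48 in HFD vs. CD (SE 0.65, FDR = 1.00), 1.77 in CDmetf vs. CD (SE 0.65, FDR = 0.940), -1.89 in HFDmetf vs. CDmetf (SE 0.68, FDR = 0.599) and -1.60 in HFDmetf vs. HFD (SE 0.68, FDR = 0.639). These values come from edgeR's quasi-likelihood test with sex and replicate number as covariates, FDR is its p adjusted over all genes, and in all 4 contrasts the unadjusted p of Cd79a was under 0.05. That was lost without HFD F1 in HFD vs. CD (0.79) and in HFDmetf vs. HFD (-0.95), without HFD M2 in the same contrasts (1.09 and -1.23), without CD F2, CD F3 or CD M1 in the first, without HFDmetf F1 or HFDmetf F3 in the second, and without CDmetf F2 in CDmetf vs. CD (1.26).

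Lyn and Blk are the Src-family kinases of the set, which phosphorylate the receptor chains, and Lyn also acts on inhibitory receptors. Lyn had a median of 49.1 CPM in CD (35.5 to 54.7), 59.4 in CDmetf (37.1 to 73.0), 62.6 in HFD (51.8 to 67.7) and 45.9 in HFDmetf (35.1 to 55.5). It was the least variable member, and 5 of the 6 HFD libraries lay above every CD library. Its logFC was 0.36 in HFD vs. CD (SE 0.14, FDR = 1.00) and -0.42 in HFDmetf vs. HFD (SE 0.14, FDR = 0.639), where 5 of the 6 HFDmetf libraries lay below every HFD library. In HFDmetf vs. CDmetf it was -0.31 (SE 0.14) and in CDmetf vs. CD 0.24 (SE 0.14), and the unadjusted p was under 0.05 in all but the last. In HFDmetf vs. CDmetf it was over 0.05 when any of 12 of the 24 libraries was left out.

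Blk, a kinase largely restricted to B cells, was the least abundant member. It had a median of 0.703 CPM in CD (0.209 to 3.59), 1.97 in CDmetf (0 to 8.13), 0.779 in HFD (0 to 12.5) and 0.786 in HFDmetf (0.236 to 1.56). Under 3 reads were counted in 7 of the 24 libraries, with 0 reads in CDmetf M2 and HFD F2, which allows up to 0.897 and 1.28 CPM there (3 reads, counting error only). The logFC was -2.37 in HFDmetf vs. CDmetf (SE 0.94, FDR = 0.599) and 1.97 in CDmetf vs. CD (SE 0.86, FDR = 0.940), both with an unadjusted p below 0.05. The HFD vs. CD value was 1.57 (SE 0.86) and, without HFD F1, 0.51.

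Syk, the kinase recruited to the phosphorylated chains, had a median of 33.2 CPM in CD (25.5 to 54.6), 67.4 in CDmetf (34.4 to 117), 37.6 in HFD (26.4 to 69.3) and 46.8 in HFDmetf (33.4 to 79.7). All 6 CDmetf libraries lay above the CD median and 4 lay above every CD library. The logFC of 0.89 in CDmetf vs. CD (SE 0.27, 95% CI 0.36 to 1.41, FDR = 0.940) had the smallest unadjusted p of any member in the 4 contrasts. In the remaining contrasts it was 0.34 (HFD vs. CD), -0.42 (HFDmetf vs. CDmetf) and 0.13 (HFDmetf vs. HFD), with an SE of 0.27 in each and an unadjusted p over 0.05.

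Blnk, the adaptor on which the later enzymes assemble, had a median of 17.8 CPM in CD (12.8 to 23.99), 27.4 in CDmetf (17.0 to 34.1), 23.7 in HFD (11.2 to 29.1) and 18.1 in HFDmetf (11.0 to 29.6). In CDmetf, 4 of 6 libraries were above every CD library, and the logFC in CDmetf vs. CD was 0.52 (SE 0.21, FDR = 0.940). In HFDmetf vs. CDmetf it was -0.44 (SE 0.21, FDR = 0.629), and in both the unadjusted p was under 0.05.

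Btk, a Tec-family kinase that activates the phospholipase, had a median of 2.73 CPM in CD (1.43 to 3.35), 3.07 in CDmetf (1.195 to 11.4), 3.94 in HFD (2.49 to 9.70) and 2.31 in HFDmetf (0 to 4.37). HFDmetf M3 had 0 Btk reads, which allows up to 1.32 CPM, and the 3 highest libraries were CDmetf F2 (11.4), HFD F1 (9.70) and HFD M2 (9.16). The logFC was 1.09 in HFD vs. CD (SE 0.47, FDR = 1.00) and -1.30 in HFDmetf vs. HFD (SE 0.48, FDR = 0.639), both at an unadjusted p under 0.05.

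Plcg2, the phospholipase that turns the signal into calcium release, had a median of 32.4 CPM in CD (27.8 to 41.5), 40.3 in CDmetf (22.1 to 65.0), 43.2 in HFD (26.3 to 64.2) and 35.03 in HFDmetf (25.5 to 46.4). Vav1, an exchange factor for Rac, had a median of 10.1 CPM in CD (7.66 to 14.1), 11.1 in CDmetf (3.59 to 25.6), 12.6 in HFD (7.24 to 17.9) and 10.9 in HFDmetf (9.43 to 11.9). For neither gene did any of the 4 contrasts reach an unadjusted p under 0.05, with logFC from -0.37 to 0.42 for Plcg2 and from -0.25 to 0.32 for Vav1. The highest Plcg2 level in HFD was that of HFD M3 (64.2 CPM), the library with little Fabp6, which also had the highest summed level of 8 tuft cell markers (258.7 CPM, against 50.3 to 138.6 in the others). The part of tuft cells in this value was not tested. The Vav1 logFC in CDmetf vs. CD turned to -0.03 and that in HFDmetf vs. CDmetf to 0.09 when CDmetf F2 was left out.

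No member passed the FDR threshold of 0.05 in any of the 4 contrasts or in the diet by metformin interaction, and edgeR called 0% of the 14076 genes in each of them. limma-voom called 0 genes throughout, and DESeq2 called 13 in HFD vs. CD, 3 in HFDmetf vs. CDmetf, 0 in HFDmetf vs. HFD, 4 in CDmetf vs. CD and 4 in the interaction, none of them a member. In HFDmetf vs. CDmetf DESeq2 gave an adjusted p to Lyn alone of the 8, so that the other 7 could not have been called there. The study itself, with limma-voom at the same threshold, reported differentially expressed genes in each of the 4 contrasts. Its pathway results name Btk among them in HFDmetf vs. HFD, Btk, Blnk and Cd79a in HFDmetf vs. CDmetf, and Blnk and Cd79a in CDmetf vs. CD. Those calls were not reproduced here, and the cause of the difference was not tested. At an unadjusted p under 0.05, edgeR found 3 of the 8 members in HFD vs. CD, beside 4.63% of all genes (652). It found 4 in HFDmetf vs. CDmetf beside 7.88% (1109), 3 in HFDmetf vs. HFD beside 6.61% (931) and 4 in CDmetf vs. CD beside 5.14% (724). The members' logFC was above 0 for 8 of 8 in HFD vs. CD and in CDmetf vs. CD, for 0 of 8 in HFDmetf vs. CDmetf and for 1 of 8 (Syk) in HFDmetf vs. HFD, against 48.8%, 49.6%, 55.3% and 53.9% of all genes in that order. Their median logFC was 0.39, 0.62, -0.43 and -0.40 in the same order, while that of all genes lay between -0.0047 and 0.033. In each contrast the groups overlapped for all 8 members, as they did for all but 0.0853% (HFD vs. CD), 0.149% (CDmetf vs. CD), 0.142% (HFDmetf vs. CDmetf) and 0.0355% (HFDmetf vs. HFD) of genes. The contrasts share groups, so that their values are not independent of each other.

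The number of members with p under 0.05 turned on single libraries. Percentages in brackets give the share of all genes at that p in the same fit. In HFD vs. CD the number was 0 of 8 without HFD M2 (4.97%) and 5 of 8 without HFD F2 (4.41%) or HFD F3 (8.42%). Leaving out both HFD M2 and HFD F2 (3.94%) left 1 of 8 (Btk, 1.19), with Cd79a at 1.38, Lyn at 0.28 and the other 5 between 0.26 and 1.42. In HFDmetf vs. CDmetf the number fell to 1 without CDmetf F3 (6.26%), CDmetf M1 (5.94%) or HFDmetf F1 (5.62%) and reached 6 without CDmetf M2 (7.42%). In HFDmetf vs. HFD it fell to 1 without HFD F1 (5.18%) and reached 5 without CDmetf M2 (6.57%), HFD F3 (16.2%) or HFD M1 (4.96%). Without both HFD M2 and HFD F2 (2.26%) it was 2 there (Lyn, -0.37, and Btk, -1.42), with Cd79a at -1.52 and the other 5 between -1.75 and -0.034. In CDmetf vs. CD it fell to 2 without CD M1 (3.48%) or CDmetf F2 (4.33%) and reached 6 without CDmetf M2 (4.74%). Of the 14 values with an unadjusted p under 0.05 in the 4 contrasts, 3 kept it with each library left out in turn (Cd79a in HFDmetf vs. CDmetf, Lyn in HFDmetf vs. HFD and Syk in CDmetf vs. CD). The direction held more widely, since with each of the 24 libraries left out in turn at least 7 of 8 members kept the sign of the majority in all 4 contrasts.

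**Figure D1:**
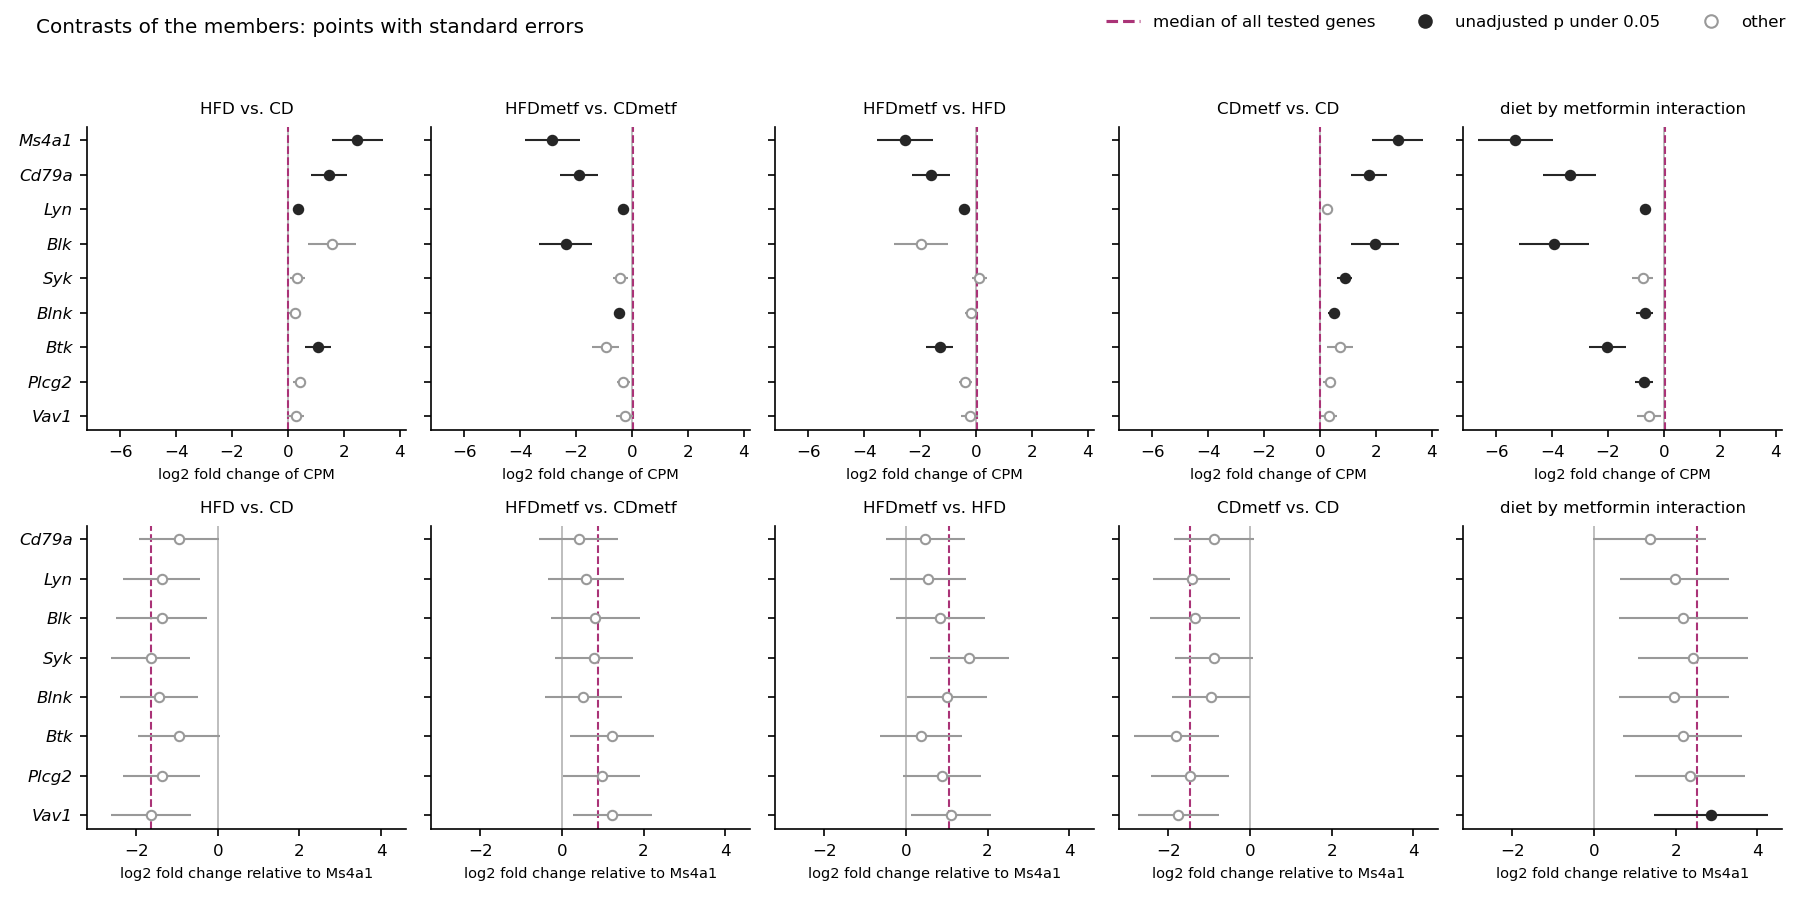
The logFC of each member and of Ms4a1 in the 4 contrasts and the diet by metformin interaction (edgeR, 24 libraries), with bars drawn from its SE. The vertical line marks 0. Bars are widest for Blk, Cd79a and Ms4a1 and narrowest for Lyn, and no member passed the FDR threshold of 0.05.

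The diet by metformin interaction asks whether metformin's contrast differed between the diets, as the logFC of HFDmetf vs. HFD minus that of CDmetf vs. CD. It was below 0 for 8 of 8 members, while 54.0% of all genes were above 0, and 6 members had an unadjusted p under 0.05, beside 6.03% of all genes (849 of 14076). Cd79a had the smallest p (-3.38, SE 0.94, 95% CI -5.21 to -1.54, FDR = 0.603), followed by Lyn (-0.66, SE 0.20), Blk (-3.94, SE 1.27), Btk (-2.02, SE 0.67), Blnk (-0.69, SE 0.30) and Plcg2 (-0.72, SE 0.33). Syk (-0.76, SE 0.38) and Vav1 (-0.54, SE 0.42) did not reach that level. The count ran from 4 of 8 without CD M1 (7.44% of all genes), HFD F1 (4.89%) or HFDmetf F3 (8.74%) to 8 of 8 without CDmetf M2 (6.53%). It was 7 of 8 without both HFD M2 and HFD F2 (4.79%). Cd79a, Lyn, Blk and Btk kept an unadjusted p under 0.05 with each library left out. For Ms4a1 the interaction was -5.32 (SE 1.34, FDR = 0.547), the largest in size of the 9 genes.

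Other genes of the pathway were read from a list of 36 co-receptors, inhibitory receptors, kinases, adaptors and effectors downstream of the phospholipase. None was called at an FDR of 0.05, and at an unadjusted p under 0.05 the list held 9 genes higher and 0 lower in HFD vs. CD, where 2.59% of all genes were higher and 2.04% lower at that p. It held 10 higher and 0 lower in CDmetf vs. CD (2.74% and 2.41% of all genes), 1 higher and 10 lower in HFDmetf vs. CDmetf (3.84% and 4.04%) and 0 higher and 7 lower in HFDmetf vs. HFD (3.79% and 2.82%). The median logFC of the 36 was 0.29, 0.34, -0.26 and -0.23 in that order. Cr2, a complement receptor of B cells, had a logFC of 2.32 in CDmetf vs. CD, -3.28 in HFDmetf vs. CDmetf and -2.62 in HFDmetf vs. HFD, and the inhibitory receptor gene Cd22 had 1.84 in HFD vs. CD. In the interaction 16 of the 36 were lower and 1 higher at that p (2.99% and 3.04% of all genes), with a median of -0.46.

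Ms4a1, the denominator, had a median of 0.735 CPM in CD (0.510 to 7.18), 6.88 in CDmetf (0.897 to 49.1), 2.17 in HFD (1.62 to 33.4) and 1.55 in HFDmetf (0.791 to 3.96). Its reads numbered from 2 in CD F2 to 1430 in HFD F1, and 13 of the 24 libraries had under 10. Its logFC was 2.48 in HFD vs. CD (SE 0.92, FDR = 1.00), 2.79 in CDmetf vs. CD (SE 0.92, FDR = 0.940), -2.84 in HFDmetf vs. CDmetf (SE 0.98, FDR = 0.597) and -2.53 in HFDmetf vs. HFD (SE 1.01, FDR = 0.639), each larger in size than that of any member. At 5 CPM or more it was found in CD F1, CDmetf F2, F3 and M1 and HFD F1 and M2, with 7.18 to 49.1 CPM, while the other 18 libraries had 0.510 to 3.96 CPM.

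Per read of Ms4a1, Cd79a gave 1.41 to 8.33 reads in CD (median 3.90), 0.891 to 3.80 in CDmetf (median 1.98), 1.16 to 3.17 in HFD (median 1.85) and 1.43 to 5.40 in HFDmetf (median 3.02). Lyn gave 6.48 to 101.8 in CD (median 67.2), 1.33 to 42.6 in CDmetf (median 19.3), 2.03 to 36.7 in HFD (median 26.8) and 11.9 to 47.6 in HFDmetf (median 30.9). The medians of both genes were highest in CD, the group with the lowest Ms4a1 median, and all 6 HFD and all 6 CDmetf libraries lay below the CD median. The same held for Blk, Plcg2 and Vav1, while 2 CDmetf libraries lay above the CD median for Syk, 1 of them above every CD library, 1 CDmetf library did for Blnk and 1 HFD library for Btk. In the 6 libraries with at least 5 CPM of Ms4a1, Lyn gave a median of 3.49 reads per Ms4a1 read, Syk 2.77, Plcg2 2.64, Blnk 1.15 and Vav1 0.673, against 35.5, 30.5, 25.4, 16.4 and 7.75 in the other 18. Cd79a had 1.25 in the 6 and 3.08 in the 18, and Btk 0.337 and 1.71. Blk was the exception, with a higher median in the 6 (0.324) than in the 18 (0.279). These libraries were split by Ms4a1, the denominator of the ratio, so that the differences are a description with no test.

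**Figure D2:**
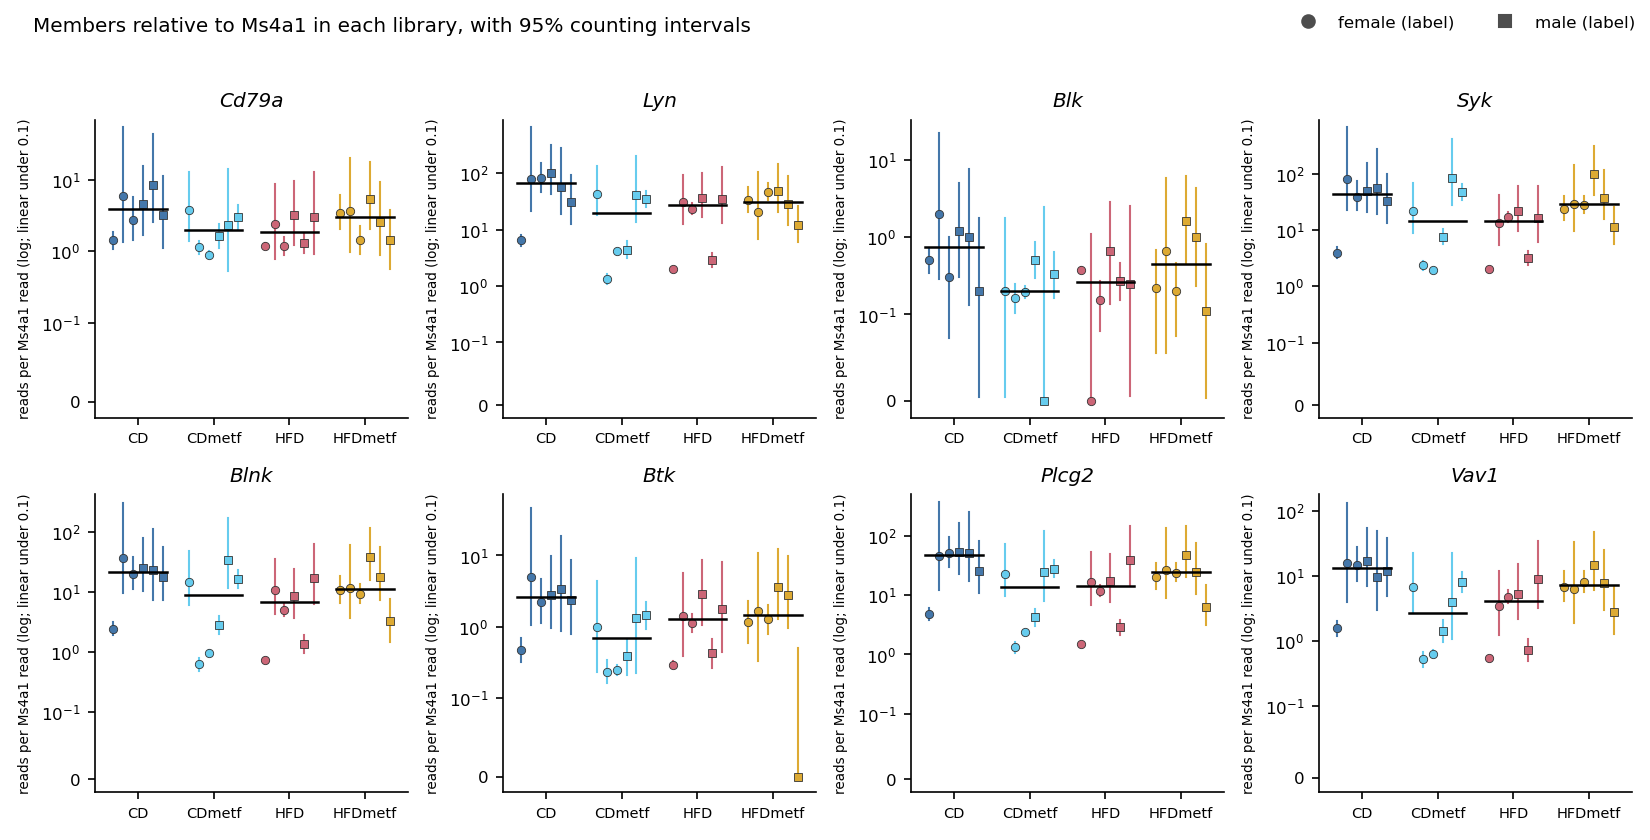
Reads of each member per read of Ms4a1, on a log axis, in the 24 libraries by group, with group medians as bars. Lyn runs from 1.33 in CDmetf F2 to 101.8 in CD M1, and all 6 HFD and all 6 CDmetf libraries lie below the CD median for Lyn and for Cd79a.

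Tested on the same 24 libraries with the Ms4a1 count as the offset, no member passed an FDR of 0.05 relative to Ms4a1 in any contrast. Of the 14075 genes, edgeR called 6 in HFD vs. CD (0.0426%), 1 in HFDmetf vs. CDmetf (0.0071%), 1 in HFDmetf vs. HFD (0.0071%), 0 in CDmetf vs. CD (0%) and 14 in the interaction (0.0995%). The members' median logFC relative to Ms4a1 was -1.37 in HFD vs. CD, -1.38 in CDmetf vs. CD, 0.80 in HFDmetf vs. CDmetf and 0.87 in HFDmetf vs. HFD, and that of all genes was -1.64, -1.46, 0.89 and 1.06. Since 0.398%, 0.291%, 99.3% and 98.9% of all genes were above 0 in the same order, the sign of the ratio was shared with nearly every gene in the table. The intervals were wide: for Cd79a in HFD vs. CD the logFC was -0.95 (SE 0.98, 95% CI -2.87 to 0.96). At an unadjusted p under 0.05 the members numbered 0 of 8 in each of the 4 contrasts, beside 14.2%, 9.68%, 1.6% and 2.88% of all genes, and 1 of 8 in the interaction (Vav1, 2.87, FDR = 0.123) beside 34.4%. With 1 library left out, the count in the interaction was 0 for 10 libraries, among them HFDmetf M1, where 12.4% of all genes had such a p, and reached 3 without CDmetf F1 (82.4%). Without both HFD M2 and HFD F2 it was 0 (15.7%). In CDmetf vs. CD the count of members reached 3 of 8 without CDmetf F1, where 40.2% of all genes had such a p. In the interaction 8 of 8 members and 99.8% of all genes were above 0.

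Across the 24 libraries, Cd79a followed Ms4a1 most closely of all 14075 genes, with a Pearson's r of 0.92 on log2 CPM (adjusted p = 0.0051 over all genes, 100000 permutations, two-sided) and a Spearman's rho of 0.77 (adjusted p = 0.056). Blk ranked 78 (r = 0.75, adjusted p = 0.0058, rho = 0.54), Vav1 167 (r = 0.66, adjusted p = 0.027, rho = 0.60) and Plcg2 207 (r = 0.62, adjusted p = 0.096, rho = 0.49). These 3 members with an adjusted permutation p under 0.05 stand beside 1.25% of all genes (176) by Pearson's r, and 0% by Spearman's rho. Lyn (r = 0.53, rank 285), Btk (r = 0.46, rank 389), Syk (r = 0.44, rank 428) and Blnk (r = 0.32, rank 902) followed less closely. Btk rested on 1 library, since without HFDmetf M3, which had 0 Btk reads, r was 0.83 and passed the threshold, and Plcg2 did so without HFD M3 (r = 0.70). The log2 change of a member per log2 change of Ms4a1 was 0.79 for Blk, 0.66 for Cd79a, 0.34 for Btk and between 0.08 and 0.19 for the other 5.

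**Figure D3:**
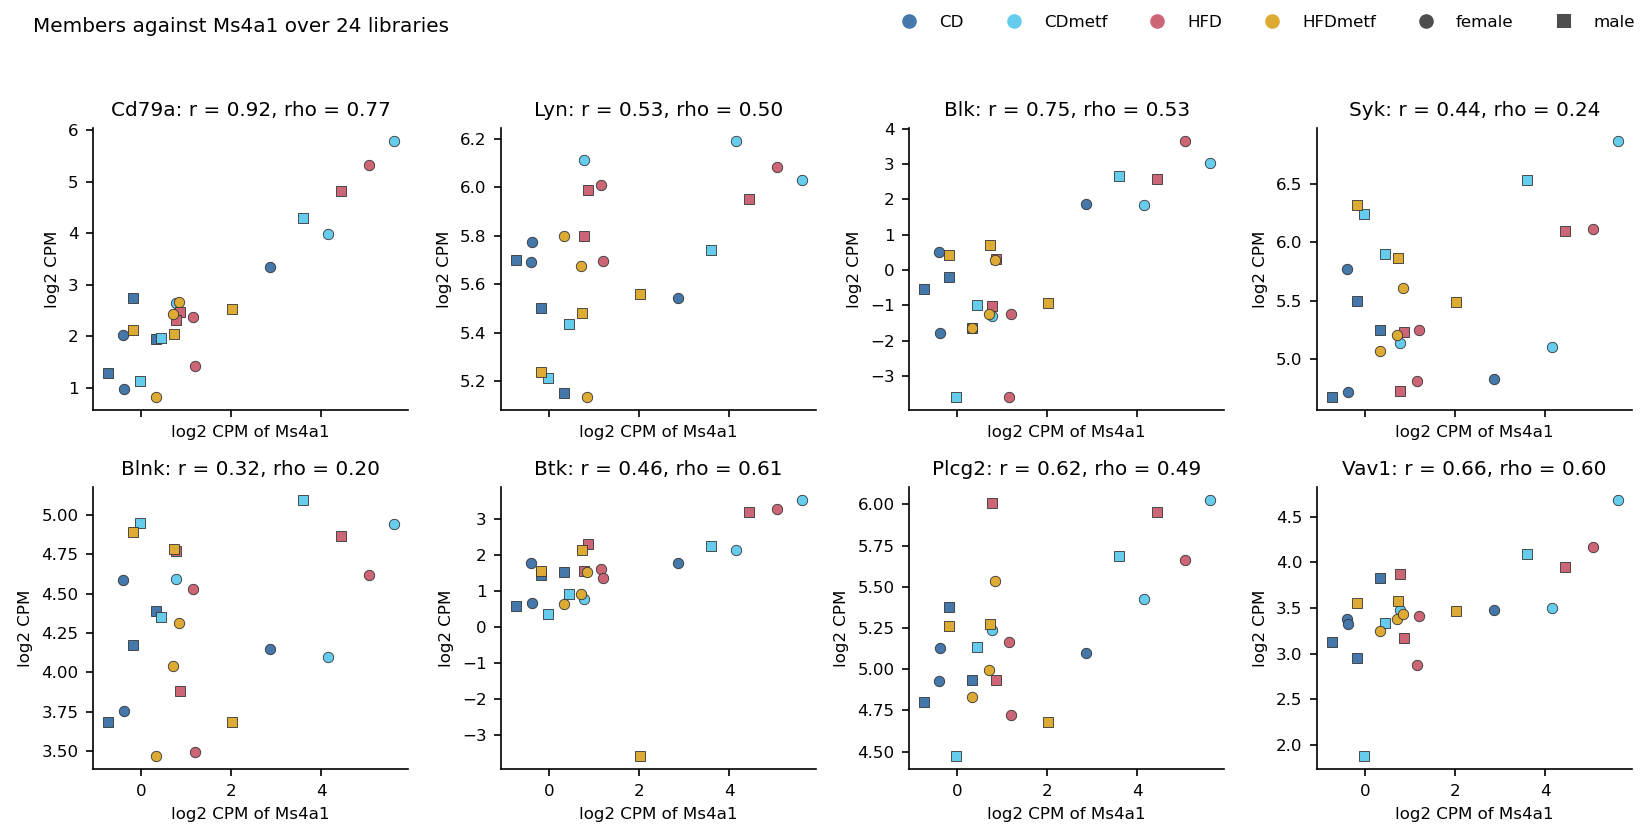
Log2 CPM of each member against log2 CPM of Ms4a1 in the 24 libraries, coloured by group, with Pearson's r. The points of Cd79a lie closest to a line (r = 0.92), and for Syk, Blk, Blnk and Btk r is below 0 among the 18 libraries under 5 CPM of Ms4a1.

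Values of r fell when libraries with much Ms4a1 were left out. Without the 2 farthest from its median, CDmetf F2 and HFD F1, r was 0.86 for Cd79a, 0.63 for Blk, 0.47 for Plcg2, 0.46 for Vav1, 0.41 for Lyn, 0.25 for Btk, 0.19 for Blnk and 0.18 for Syk, and 12 genes were called, among them Cd79a but not Blk or Vav1. Within the 18 libraries under 5 CPM, r was 0.45 for Cd79a, 0.23 for Vav1, 0.19 for Lyn and 0.03 for Plcg2, and was below 0 for Syk (-0.08), Blk (-0.12), Blnk (-0.15) and Btk (-0.38), with 0 genes called. Within the 6 others it was 0.96 for Cd79a, 0.92 for Btk, 0.79 for Plcg2 and Vav1, 0.76 for Lyn, 0.73 for Blk, 0.68 for Syk and 0.43 for Blnk, given as a description of these 6. Choosing libraries by Ms4a1 narrows its range, and the 18 under 5 CPM had 2 to 91 Ms4a1 reads. A lower r and 0 calls can follow from that alone, so that these subsets do not show where the relation lies. Within replicate numbers 1, 2 and 3 (8 libraries each), r was 0.98, 0.94 and 0.89 for Cd79a, and for Vav1 it was 0.85, 0.77 and 0.07.

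Markers of the other cells in the tissue moved with some members. The summed CPM of 12 B cell markers ran from 16.3 to 90.1 in CD, from 20.5 to 452.6 in CDmetf, from 22.1 to 371.1 in HFD and from 15.1 to 48.6 in HFDmetf, and its Pearson's r was 0.96 with Cd79a (rank 1 of 14064 genes), 0.86 with Blk, 0.71 with Plcg2, 0.68 with Vav1 and 0.62 with Btk, each with an adjusted permutation p under 0.05, as for 1.79% of all genes with r above 0. The sum of 12 T cell markers ran from 16.1 to 44.98 in CD, from 14.3 to 115.3 in CDmetf, from 22.6 to 68.4 in HFD and from 19.6 to 39.6 in HFDmetf, with an r of 0.89 for Cd79a, 0.79 for Blk, 0.77 for Vav1 and 0.70 for Plcg2, all 4 with an adjusted p under 0.05, as for 2.0% of all genes. The parts of B and T cells in these levels were not tested. Cd3d was at 0 in 8 libraries and Cxcr5 in 3, while Cd79b and Pax5 were above 0 in all 24.

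Syk had its highest r with the macrophage list. The sum of 10 macrophage markers ran from 147.3 to 256.9 CPM in CD, from 198.7 to 341.7 in CDmetf, from 152.9 to 262.1 in HFD and from 205.5 to 419.4 in HFDmetf, and its r was 0.65 with Syk (adjusted p = 0.019, rho = 0.72, 0.63 without the 2 libraries farthest from its median), while 5.77% of all genes had an r above 0 with an adjusted p under 0.05. For Blnk it was 0.54 (adjusted p = 0.066) and for Lyn -0.17. Lyn had an r of 0.54 with 6 ileal epithelium markers (adjusted p = 0.058) and of -0.56 with 7 mast cell markers (adjusted p = 0.023), where 11.4% of all genes were below 0 and 17.0% above 0 at that threshold, the highest shares of the 7 lists. The mast cell sum is made up mostly of Kit (median 42.8 CPM, against 1.57 for Mcpt1, the next highest). Ms4a2 was at 0 in 13 libraries and Fcer1a in 17, so that an r with this sum cannot be read as one with mast cells. Plcg2 had an r of 0.38 with the 8 tuft cell markers (adjusted p = 0.49), and the 7 plasma cell markers had no r over 0.47 with any member, that of Lyn (adjusted p = 0.36). Whether these cells contributed to the members' group values was not tested.

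**Figure D4:**
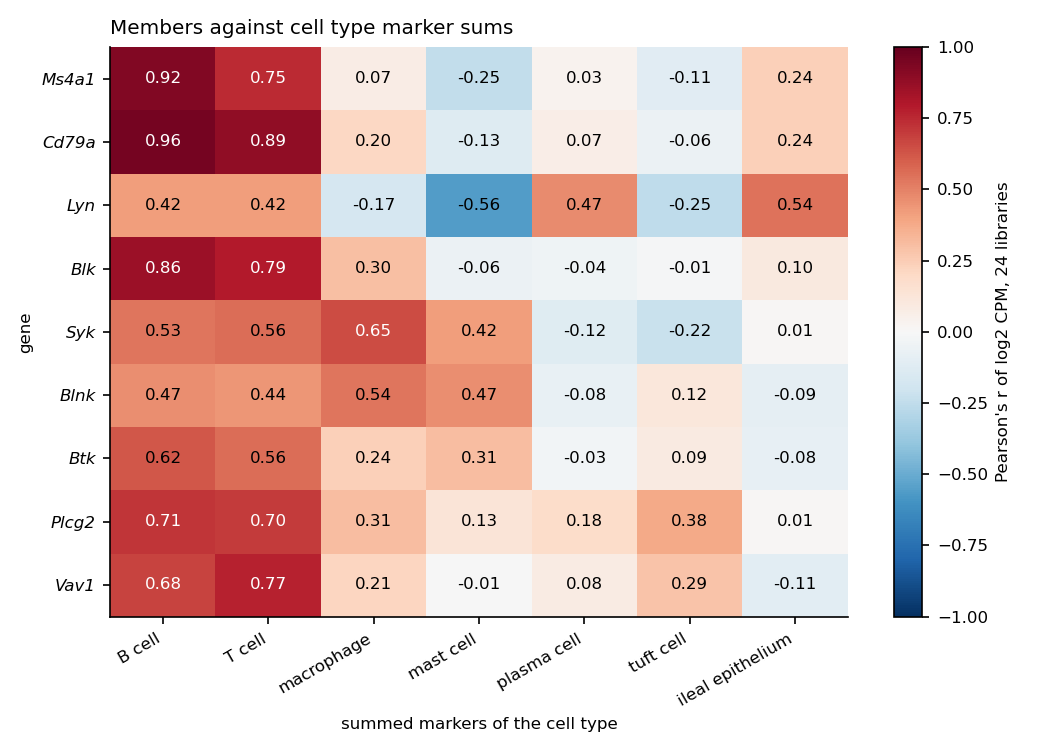
Pearson's r over the 24 libraries between log2 CPM of each member or Ms4a1 and the log2 summed CPM of 7 marker lists. Cd79a and Blk have their highest r with the B cell list (0.96 and 0.86), Vav1 with the T cell list (0.77) and Syk with the macrophage list (0.65).

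Genes near to each member over the 24 libraries, by Pearson's r of log2 CPM among 14075 genes, differed from member to member. For Ms4a1 they were Cd79a (0.92) and Btla (0.91), for Cd79a Cd79b (0.96), Cd52 (0.94) and Cd22 (0.93), and for Blk Ikzf3 (0.92), Myo1g (0.91) and Cr2 (0.91). For Vav1 they were Rac2 (0.89), Arhgap4 (0.85) and Ripor2 (0.84), for Btk Nfkbid (0.87), Trac (0.86) and Sp140 (0.85), and for Plcg2 Cnp (0.79), Sh2d2a (0.78) and Pik3cg (0.78). For Syk they were Slain1 (0.86), Rassf2 (0.86) and Cnn2 (0.85), for Blnk Nfatc2 (0.85), Rnf157 (0.82) and Cnn2 (0.79), and for Lyn Ddx58 (0.85), Liph (0.82) and Apaf1 (0.82). No member had Ms4a1 among its 3 nearest genes. Among the members, Cd79a and Blk had an r of 0.83 and Plcg2 and Vav1 of 0.72, while Lyn and Syk had -0.15 and Lyn and Blnk -0.06.

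Within groups, the members ranged from among the most to among the less variable genes of the table. The biological coefficient of variation of Blk was higher than that of 98.9% of the 14076 genes, that of Cd79a than 97.7%, Btk 93.5%, Vav1 79.5%, Syk 76.5%, Plcg2 66.5%, Blnk 58.0% and Lyn 24.6%, and that of Ms4a1 was higher than 99.0%. The contrasts of the 8 members did not reach an unadjusted p under 0.05 for a difference between females and males in any of the 4 (0 of 32 tests; edgeR called 0 of 14402 genes in each, and 2.11%, 5.27%, 3.33% and 5.21% of genes had p under 0.05). That fit takes HFD M2 and HFD F2 by their labelled sex. Without them, 1 of the 32 reached it, Syk in HFDmetf vs. HFD (-1.34, females minus males, FDR = 0.995), beside 4.19% of 15552 genes.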

How the data were processed

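RNA from the distal small intestine of 24 mice was sequenced as 1 library per animal, and the samples were grouped by the labels of diet, metformin, sex and replicate number. The authors deposited raw read counts per gene. By the study's methods and the submitters' processing notes, reads were trimmed with Trimmomatic 0.39, mapped to GRCm38 and counted with STAR 2.5.3a. Which annotation release and which strand were counted is not given in the sources used here, so that antisense overlaps are uncertain, and reads mapping to several places were not counted. Rows that name no gene (unmapped, multimapping, outside genes, ambiguous) took 35.5% to 75.7% of the reads and were left out, and 0 columns of other samples were present. Symbols were matched for 55450 of 55536 identifiers.

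From these counts, edgeR 4.0.16 (R 4.3.3) was run with TMM, filterByExpr on the design (14076 genes kept) and a quasi-likelihood fit of group, sex and replicate number over all 24 libraries (17 residual degrees of freedom), with Benjamini-Hochberg adjustment over all genes and a threshold of 0.05. The study used sex and block, and the replicate number was taken as the block, which the labels do not state. Ratios to Ms4a1 came from the same fit with the log of the Ms4a1 count plus a scaled prior of 1 as the offset, and sex differences from a model with sex within group (14402 genes). Levels were TMM-scaled CPM, and log2 CPM for correlations used a prior count of 1. Correlations were tested with 100000 permutations of the libraries, two-sided, for which the smallest p is 1e-05, and adjusted over all genes. The scripts were tested on simulated data. For the ratio fit the simulated denominator was deep in every library, whereas 13 of the 24 libraries had under 10 Ms4a1 reads. How that fit behaves at so few reads was thus not tested.

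The 8 members, Ms4a1, the pathway list of 36 genes and the 7 marker lists (B cell, T cell, macrophage, mast cell, plasma cell, tuft cell and ileal epithelium) were chosen with earlier results of these data known. The text names all members and Ms4a1, in each contrast the 2 pathway genes with the largest absolute logFC among those with an unadjusted p under 0.05, and for each member the 3 genes with the highest r. Marker genes at 0, the sex-linked check and the split of the libraries at 5 CPM of Ms4a1 were chosen after the values were seen, as were the correlations with summed marker lists. A gene that these rules name, and the ratios that used it as denominator, are not reported here. Alternatives were DESeq2 1.42.0, limma-voom and limma on the log ratio (limma 3.58.1), a minimum of 10 counts in every library, RLE scaling, no filter, no replicate block, only the 12 libraries of a contrast, the geometric mean of the B cell markers as denominator, Spearman's rho, residuals after group, sex and number, and leaving out libraries. Promoters came from the RefSeq table of GRCm38.p6 and gene positions from GENCODE M21. Depth limits the precision, since 3 reads correspond to between 0.0701 and 1.70 CPM.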

Additional observations from a re-analysis of the deposited data

Results flagged for a closer look

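Among the 6 libraries of a group, 1 library stood apart by Dixon's test in 7 of the 68 groups tested, and chance gives about 5%. That 5% holds for independent, normally distributed values. The test was run on raw CPM and raw ratios of the same libraries for genes that vary together, so that no excess can be read from it. CDmetf F2 was far above the rest of its group for Cd79a (55.4 CPM, next 19.6), Btk (11.4 CPM, next 4.65) and Ms4a1 (49.1 CPM, next 17.7). In CD, F1 was far above the others for Blk (3.59 CPM, next 1.33) and Ms4a1 (7.18 CPM, next 1.17). In HFDmetf, M3 had the highest Ms4a1 level (3.96 CPM, from 9 reads), and M1 had 100.8 Syk reads per Ms4a1 read, from 5 Ms4a1 reads. The causes were not tested.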

How the results depend on the processing

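On CPM, no member with an adjusted p was called under any of the alternatives run. DESeq2 gave none to 7 members and Ms4a1 in HFDmetf vs. CDmetf, and the minimum of 10 counts in every library left 5 members. Of the members' and Ms4a1's other values, 1397 kept their direction and side of the threshold while 5 changed sign. Without HFD M2 and HFD F2, the Syk logFC in HFDmetf vs. HFD was -0.034. Leaving out 1 library at a time, it ran from -0.070 to 0.35, Vav1 from -0.45 to 0.085 in HFDmetf vs. CDmetf and from -0.032 to 0.49 in CDmetf vs. CD, and the genes called in HFD vs. CD from 0 to 1. DESeq2 called 13 genes in HFD vs. CD, 3 in HFDmetf vs. CDmetf, 4 in CDmetf vs. CD and 4 in the interaction. Without HFD M2 and HFD F2, the female minus male difference in HFD vs. CD was 1.297 for Cd79a, 0.96 for Blk, 0.30 for Btk, 0.20 for Vav1 and 1.22 for Ms4a1, opposite in sign to the fit with them, and 1 gene differed between the sexes in HFDmetf vs. CDmetf.

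In their deviations from the group means, libraries of the same replicate number in different groups had a mean correlation of 0.130. Of these 72 pairs, 40 were over 0.1. For other numbers the mean was -0.0642 (29 of 144 over 0.1), and for the same sex and number 0.168 (23 of 36). The deviations were thus more alike within a number, though single pairs of the same number went down to -0.458. The cause was not tested. Without the replicate block, no member was called, and the genes called relative to Ms4a1 numbered 45 in HFD vs. CD, 8 in HFDmetf vs. CDmetf, 13 in HFDmetf vs. HFD, 10 in CDmetf vs. CD and 38 in the interaction.

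The values relative to Ms4a1 depended most on the processing. Leaving out 1 library, the genes called ran from 1 to 12 in HFD vs. CD, 0 to 26 in HFDmetf vs. CDmetf, 0 to 2 in HFDmetf vs. HFD, 0 to 37 in CDmetf vs. CD and 3 to 37 in the interaction, the highest in 3 of these without CDmetf F1. Without HFD M2 and HFD F2 they numbered 1 in HFD vs. CD, 0 in HFDmetf vs. HFD and 1 in the interaction. With the geometric mean of the B cell markers as the denominator, 3 genes were called in the interaction, and signs turned for Cd79a (0.0067 in HFD vs. CD, -0.015 in HFDmetf vs. CDmetf, 0.16 in CDmetf vs. CD and -0.021 in the interaction), Blnk (-0.028 in HFDmetf vs. CDmetf and 0.22 in CDmetf vs. CD), Syk (0.27 in CDmetf vs. CD) and Btk (-0.0035 in HFDmetf vs. HFD). limma on the log ratio called 0 genes in HFD vs. CD and in HFDmetf vs. HFD and 4 in CDmetf vs. CD, with Btk at -0.18 in HFDmetf vs. HFD. In the interaction it called 13293 of 14075 genes and 4 of the 8 members (Lyn, Syk, Plcg2 and Vav1). There 95% of all genes had an unadjusted p under 0.05, so that the members' calls were shared with most of the table. With only libraries of at least 10 Ms4a1 reads, F1 and F3 alone were left in CD and in HFDmetf, and 20380 genes were tested. There 0 genes were called in HFD vs. CD and in HFDmetf vs. HFD. In HFDmetf vs. CDmetf 14984 were called, with 2 of the 8 members (Lyn and Plcg2), and 80.3% of all genes had an unadjusted p under 0.05. In the interaction 16821 were called, with 3 of the 8 (Lyn, Blnk and Plcg2), beside 85.9% at that p. Blk turned to -0.26 in HFDmetf vs. CDmetf and -0.24 in HFDmetf vs. HFD. The causes were not tested.

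Genes correlated with Ms4a1 numbered 0 by Spearman's rho, 12 without the 2 libraries farthest from its median, 0 in the 18 libraries under 5 CPM and 77 to 193 with 1 library left out (77 without CDmetf F2). In the 18 libraries r was -0.12 for Blk, -0.083 for Syk, -0.15 for Blnk and -0.38 for Btk. Leaving out 1 library, Vav1 lost its call 4 times (r from 0.55 to 0.73). Few reads on Ms4a1, Blk and Btk limit what these libraries resolve.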
